A study of Brassica napus with 355 samples.

Results

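The 100 genes described here were chosen by their response to water limitation at different times of day in leaves of Brassica napus (oilseed rape and its relatives). The response, water-limited (WL) minus well-watered (WW), was taken on the log2(CPM + 1) scale (CPM, the usual scaling of a gene's count by the total of its library) within each of 16 accessions and averaged over them. The members were selected on this average. It had to be above 0 at ZT1 and ZT7 and below 0 at ZT13 and ZT19 (ZT, hours after dawn), and the 100 genes with the widest gap between the smaller early response and the smaller late fall were kept. Of 106126 identifiers, 41325 had a mean of 2 CPM or more, 1321 of these had the 4 signs, and 100 were kept. The opposite signs, lower at ZT1 and ZT7 and higher at ZT13 and ZT19, were found in 4828 genes. Both counts depend on the scaling of libraries. Over all genes that passed the CPM filter the median response was -0.10 at ZT1 and -0.05 at ZT7. With library sizes scaled by TMM (an edgeR normalization) these medians were -0.02 and 0.005, and no counts on that scale are given here. ZT13 fell in the light by either day length in the labels, 14 h in the growth description or 16 h in the photoperiod field, so the members cannot be called genes lowered by night. ZT1 and ZT7 are called early and ZT13 and ZT19 late below.

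The watering target was 20% of full capacity for WL plants and 100% for WW plants, and the apex of the youngest leaf was taken from individual plants. The accessions were Ab (Aburamasari), Al (Alaska_BnASSYST_004), Av (Aviso), Br (Bristol_BnASSYST-031), Ca (Campari_BnASSYST-075), DH12 (DH12075), DH20 (DH2075), Da (Darmor), Gr (Gruener Schnittrohl_BnASSYST-219), Mu (Musette_BnASSYST-056), Ne (NK_Nemax_BnASSYST-084), Qu (Quantum NE011), Se (Sensaton_NZ_BnASSYST-414), St (Stellar DH JZ111), Yu (Yudal_BnASSYST-241) and Ze (Zephir_BnASSYST-068). There were 172 WL and 182 WW libraries with accession, treatment and time point together defining a group. A group had 3 libraries as a rule, 24 groups had 2 and 3 groups had 1, all of these WL (at ZT7 in St and Ab, at ZT13 in Ca). Totals ranged from 3216762 to 35177558 counts, with medians of 18332048 in WL libraries and 18331962 in WW libraries.

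Many leaf transcripts rise and fall each day under the control of the circadian clock and of light, so a stress response read at 1 time of day can differ from the same response read at another. Soil drying is known to act in leaves through abscisic acid, stomatal closure and a lower supply of carbon, and each of these has its own daily course. B. napus carries a BnA subgenome from a relative of B. rapa and a BnC subgenome from a relative of B. oleracea, so that most of its genes have a close copy in the other subgenome. BraA identifiers are read here as BnA and Bo identifiers as BnC. None of the identifiers was found in the table of gene symbols used here (0 of 106126), so genes are given by identifier, no role is stated for them, and leaf markers could not be checked.

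Before any result, 9 of the 354 libraries resembled another time point of their own accession more than their own, over 1000 genes with wide daily ranges that are not members. Under WL these were Ab at ZT13 (replicate 1, closest to ZT19), DH20 at ZT13 (replicate 3, closest to ZT7) and the only library of St at ZT7 (closest to ZT13). Under WW they were Ca replicate 1, Br replicate 3 and Qu replicates 2 and 3 at ZT7 (closest to ZT13), and Ab replicate 1 and Ze replicate 2 at ZT13 (closest to ZT7). In all, 8 of the 9 lay between ZT7 and ZT13, the interval over which the response of the members changes sign, and their part in the results was measured by leaving them out.

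The water response of the members was small at each time point and of opposite sign early and late. The median member was higher under WL by 0.23 at ZT1 and 0.21 at ZT7 (log2) and lower at ZT13 and ZT19, with medians of -0.35 and -0.34, while over the 41325 genes that passed the CPM filter the medians were -0.10, -0.05, 0.01 and 0.00. These values chose the members, so they are a description without a test. With bulk tissue of the leaf apex, fewer cells of a type and less RNA per cell cannot be told apart. The largest responses were 1.59 at ZT1 (BraA07g38940R), 1.24 at ZT7 (BraA03g03840R), -1.48 at ZT13 (BraA03g03850R) and -0.67 at ZT19 (Bo6g115880). A response of 0.5 or more in size was seen in 18 members at ZT1, 18 at ZT7, 21 at ZT13 and 18 at ZT19. In 49 members the response was under 0.1 in size at 1 or more of the time points, most often at ZT7 (28 members) and ZT1 (20), against 4 at ZT13 and 10 at ZT19. The size of the mean response was above its SD over accessions in 16 members at ZT1, 4 at ZT7, 3 at ZT13 and 12 at ZT19. Without the 9 libraries named above, 96 of the 100 members kept the 4 signs, and the medians were 0.23, 0.20, -0.35 and -0.34. Leaving them out took away the only WL library of St at ZT7, so the ZT7 means were then without St. The 4 that did not, named after their values were seen, were BraA06g28190R, Bo3g061670, BraA06g14400R and BraA02g43580R.

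**Figure D1:**
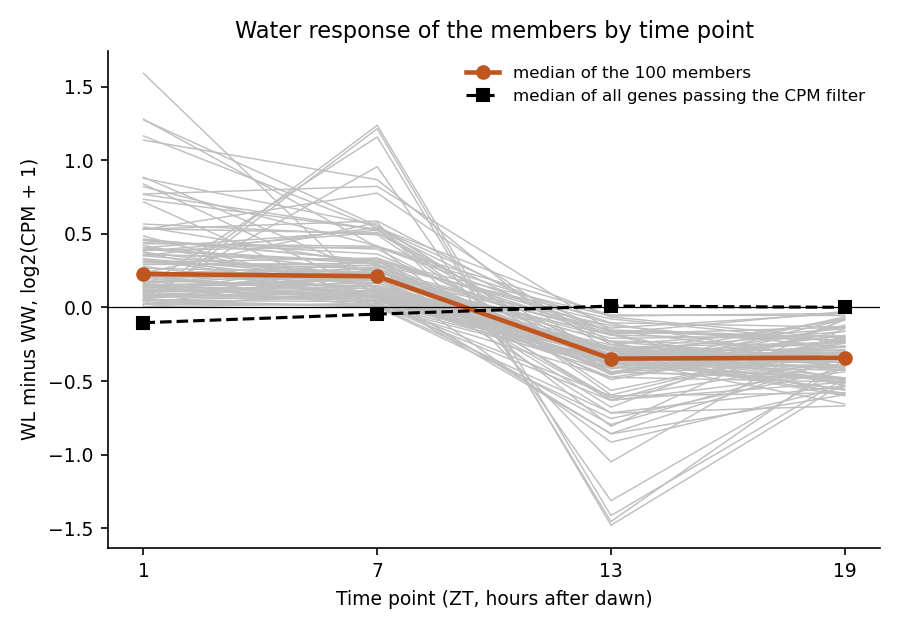
Water response (WL minus WW, log2(CPM + 1), mean of 16 accessions) at ZT1, ZT7, ZT13 and ZT19. Grey lines are the 100 members, the orange line their median (0.23, 0.21, -0.35 and -0.34) and the dashed black line the median of the 41325 genes that passed the CPM filter, which stays between -0.10 and 0.01.

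The single libraries show how far the treatments overlapped. WL and WW libraries overlapped for each of the 100 members at each of the 4 time points when accessions were pooled, as they did for all genes that passed the CPM filter (0% without overlap). The median CPM was higher in WL libraries for 88 members at ZT1 and 82 at ZT7, against 31.8% and 37.3% of genes that passed the CPM filter. It was lower in WL libraries for 91 members at ZT13 and 92 at ZT19, against 48.6% and 51.3% of those genes. The rule chose members for these directions in the same libraries, so the counts of members are a description. The values below are medians with the lowest and the highest library, from 42 WL and 46 WW libraries at ZT1, 41 and 47 at ZT7, 43 and 44 at ZT13, and 46 and 45 at ZT19. Bo8g059410 had a median of 24.1 CPM (3.01 to 100.3) in WL libraries at ZT1, against 10.8 CPM (1.91 to 30.2) in WW libraries. At ZT7, Bo8g059410 stood at 14.8 CPM (1.87 to 52.9) in WL libraries and 7.76 CPM (0.287 to 32.4) in WW libraries. The early medians were thus higher under WL, within ranges that overlapped. By ZT13, Bo8g059410 was at 9.86 CPM (0.153 to 45.3) in WL libraries, against 10.1 CPM (1.37 to 45.7) in WW libraries. At ZT19, Bo8g059410 stood at 9.16 CPM (0.7 to 24.9) in WL libraries and 10.9 CPM (0.986 to 31.7) in WW libraries. The late medians lay close together. Bo8g059410 (chromosome C8) ranked first. Its response was 1.14 ± 0.94 at ZT1, 0.87 ± 0.85 at ZT7, -0.42 ± 1.03 at ZT13 and -0.06 ± 0.66 at ZT19 (log2, SD over 16 accessions), with the early rise in 15 accessions at ZT1 and 12 at ZT7 and the late fall in 10 at ZT13 and 10 at ZT19. Most of its gap therefore came from the early times.

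The opposite balance was seen in the next gene. Bo6g115880 had a median of 3.85 CPM (0.533 to 57.2) in WL libraries at ZT1, against 3.34 CPM (0.177 to 26.7) in WW libraries. At ZT7, Bo6g115880 stood at 16.5 CPM (0.717 to 289) in WL libraries and 16.1 CPM (1.45 to 106) in WW libraries. The early medians of both treatments were close. By ZT13, Bo6g115880 was at 14.2 CPM (0.0468 to 225) in WL libraries, against 18.3 CPM (0.246 to 210.5) in WW libraries. At ZT19, Bo6g115880 stood at 5.29 CPM (0.0637 to 117) in WL libraries and 9.54 CPM (0 to 60.9) in WW libraries. Late in the day the WW medians were the higher ones. Bo6g115880 (C6) had responses of 0.31 ± 0.67, 0.26 ± 0.97, -0.72 ± 1.32 and -0.67 ± 0.82 at the 4 time points, and its late fall was seen in 11 accessions at ZT13 and 12 at ZT19. BraA06g28190R had a median of 1.59 CPM (0.101 to 18.1) in WL libraries at ZT1, against 0.559 CPM (0 to 8.11) in WW libraries. At ZT7, BraA06g28190R stood at 22.5 CPM (0.152 to 169.6) in WL libraries and 9.53 CPM (0.689 to 88.3) in WW libraries. Both early medians were higher under WL. By ZT13, BraA06g28190R was at 4.58 CPM (0 to 60.8) in WL libraries, against 7.87 CPM (0.0757 to 47.8) in WW libraries. At ZT19, BraA06g28190R stood at 7.22 CPM (0.137 to 37.7) in WL libraries and 7.42 CPM (1.13 to 44.8) in WW libraries. At ZT13 the WL median was lower, and at ZT19 the medians nearly met. BraA06g28190R (A06) had responses of 0.77 ± 0.57, 0.82 ± 0.99, -0.16 ± 1.21 and -0.35 ± 0.83. Without the 9 libraries that resembled another time point its ZT13 response was 0.04, so that it no longer had the 4 signs.

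Bo3g078830 had a median of 26.9 CPM (10.2 to 73) in WL libraries at ZT1, against 22.7 CPM (5.95 to 52.5) in WW libraries. At ZT7, Bo3g078830 stood at 34 CPM (11.7 to 147) in WL libraries and 24.6 CPM (6.47 to 100.3) in WW libraries. This gene was expressed in all libraries, and its WL medians were the higher ones early. By ZT13, Bo3g078830 was at 20.4 CPM (2.85 to 75.9) in WL libraries, against 27.5 CPM (3.88 to 106) in WW libraries. At ZT19, Bo3g078830 stood at 14.1 CPM (5.21 to 46) in WL libraries and 19.7 CPM (4.59 to 99.2) in WW libraries. Late, both WL medians were the lower ones. Bo3g078830 (C3) gave the most even pattern of the first 6, with responses of 0.38 ± 0.49, 0.51 ± 0.59, -0.44 ± 0.88 and -0.48 ± 0.49 and with the sign of the mean in 13, 15, 12 and 13 of the 16 accessions. Bo3g073020 had a median of 19.3 CPM (7.34 to 309.7) in WL libraries at ZT1, against 15 CPM (5.32 to 247) in WW libraries. At ZT7, Bo3g073020 stood at 4.18 CPM (0.308 to 266) in WL libraries and 2.79 CPM (0.229 to 111) in WW libraries. Its level was highest at ZT1 under both treatments. By ZT13, Bo3g073020 was at 3.31 CPM (0.0597 to 72.7) in WL libraries, against 2.04 CPM (0.135 to 85.6) in WW libraries. At ZT19, Bo3g073020 stood at 6.68 CPM (0.585 to 59.96) in WL libraries and 8.02 CPM (0.471 to 96.7) in WW libraries. Its ZT13 median was higher in WL libraries, against the sign of the mean response. Bo3g073020 (C3) had responses of 0.53 ± 0.63, 0.59 ± 1.33, -0.23 ± 1.43 and -0.35 ± 1.04. Bo6g120130 had a median of 53.8 CPM (12.2 to 145) in WL libraries at ZT1, against 44.6 CPM (7.78 to 147) in WW libraries. At ZT7, Bo6g120130 stood at 84.7 CPM (11.3 to 165) in WL libraries and 64.7 CPM (13.1 to 205) in WW libraries. Early, the WL medians were the higher ones. By ZT13, Bo6g120130 was at 33.6 CPM (2.96 to 87.5) in WL libraries, against 59.3 CPM (12.9 to 196) in WW libraries. At ZT19, Bo6g120130 stood at 38.8 CPM (5.6 to 127) in WL libraries and 56 CPM (10.6 to 184) in WW libraries. The late medians differed more. Bo6g120130 (C6) had responses of 0.35 ± 0.64, 0.22 ± 0.70, -0.91 ± 0.75 and -0.54 ± 0.51, and its late fall was seen in 15 accessions at ZT13 and 14 at ZT19, whereas the early rise was seen in 9 and 10.

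**Figure D2:**
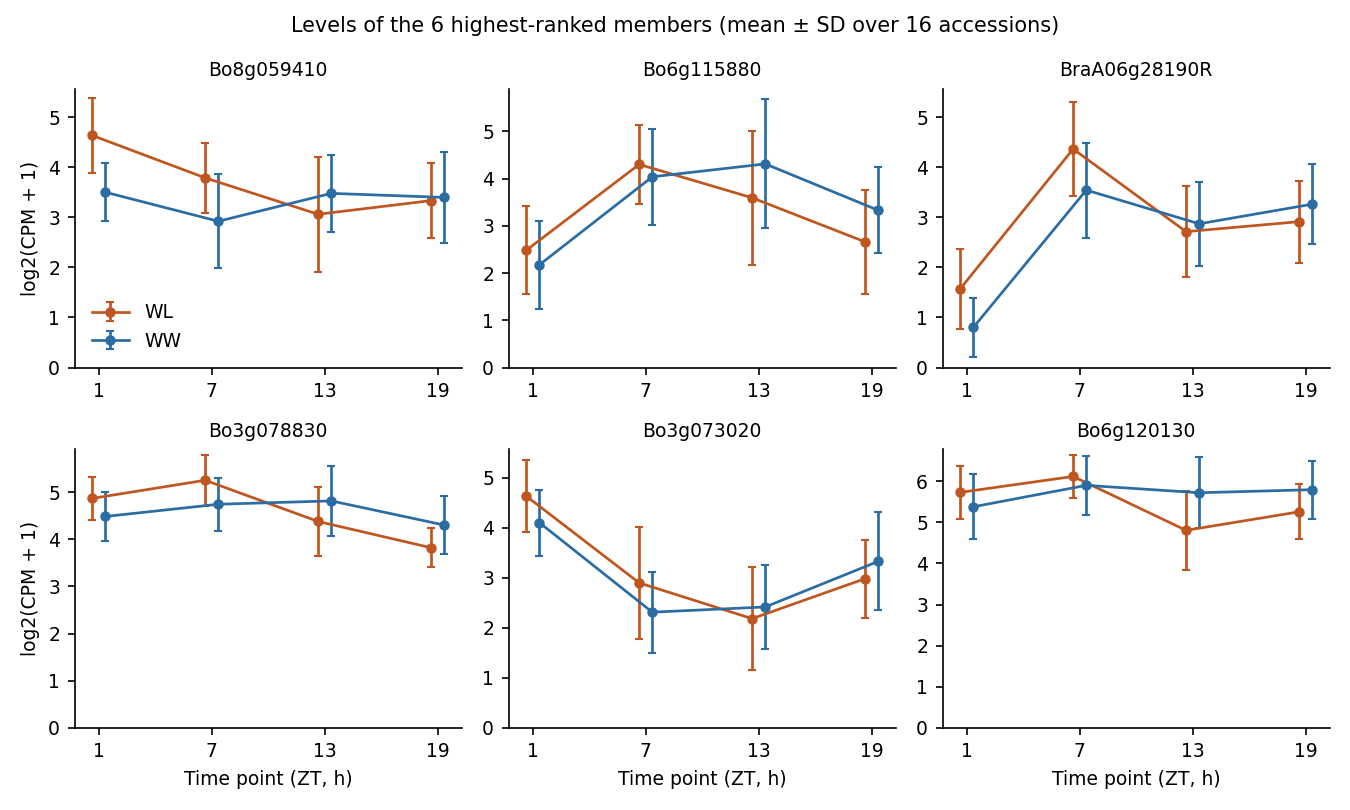
Levels (log2(CPM + 1)) of the 6 highest-ranked members at the 4 time points under WL (orange, left) and WW (blue, right). Points are means of 16 accession means and bars their SD. For Bo8g059410 the WL mean at ZT1 is 4.64 and the WW mean 3.50, and the treatments cross between ZT7 and ZT13 in each panel.

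The remaining members ranked in the first 12 had responses of the same signs. BraA07g25460R (A07) had responses of 0.73, 0.53, -0.59 and -0.21 at ZT1, ZT7, ZT13 and ZT19. Its ZT7 response was 0.25 without the 9 libraries, and so without St, where it was 4.06. Bo5g128910 (C5) had 0.57, 0.49, -0.56 and -0.24, and with early and late means of the same signs as the overall mean in 13 of 16 accessions it was the member with the most. BraA07g13830R (A07) had 0.44, 0.40, -0.41 and -0.30. Bo3g133020 (C3) had 0.88, 0.56, -0.45 and -0.12 at a mean of 2.84 CPM. These 4 genes differed in how the gap was shared between early and late. BraA07g37760R (A07) had 0.46, 0.32, -0.61 and -0.36, and BraA08g31460R (A08) 0.77, 0.53, -0.25 and -0.15. At the threshold of the rule, Bo3g013000 (rank 100) had a gap of 0.358471 with responses of 0.20, 0.10, -0.25 and -0.37, and BraA07g31030R (the next gene, left out) a gap of 0.357458 with 0.03, 0.13, -0.33 and -0.33. The difference between these gaps is far below the SD over accessions of either response of Bo3g013000 (0.43 to 0.53), and there is no break in the gaps at the edge of the list.

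How far a member's daily course itself moved was read from the mean levels over accessions. Under WL, 54 members had their highest mean at ZT1, 15 at ZT7, 11 at ZT13 and 20 at ZT19, whereas under WW 17 had it at ZT1, 8 at ZT7, 27 at ZT13 and 48 at ZT19. The peak lay early under WL and late under WW in 44 members, early under both treatments in 25 and late under both in 31. The reverse shift (0 of 100) cannot occur in genes with the 4 signs that the rule required. The most frequent change was a peak at ZT1 under WL and at ZT19 under WW, in 25 members. Among the genes that passed the CPM filter, 15.4% peaked at ZT1 and 43.1% at ZT19 under WL, and 19.5% and 40.2% under WW. The mean range over the 4 time points was narrower under WL in 60 members, with a median of 0.78 (log2) under WL and 0.95 under WW, while 62.0% of the genes that passed the filter had the wider range under WL. The rule used the same libraries, so these shifts are a description.

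The early minus late level averaged over both treatments was not used by the rule, and it was tested for every gene with edgeR's quasi-likelihood test on group means (Benjamini-Hochberg adjusted p of 0.05 or less over 67997 genes). Of the 100 members, 32 were called higher early and 40 higher late, 72 in all. Of all tested genes 47.3% were called, 21.7% higher early and 25.6% higher late. The members stand at a higher level than many tested genes, and among the 41325 genes with a mean of 2 CPM or more 64.9% were called, 29.8% higher early and 35.0% higher late, so that the share of members called was near that of genes of their level. The median size of the contrast was 0.31 (log2) over the members and 0.19 over those genes. BnA and BnC members were called in like numbers, 17 and 15 higher early and 19 and 21 higher late, of 47 and 53. With accession as an additive term edgeR called 75 members and DESeq2 76, and these fits also called more of all tested genes, 60.9% and 59.7%.

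Among the members that were higher early, Bo8g068270 (C8) and BraA08g27680R (A08) had the largest contrasts. Bo8g068270 was higher early by 2.60 ± 0.15 (log2, approximate SE; adjusted p = 5.8e-41) and in 16 of 16 accessions. For these contrasts, here and below, the SE is the size of the contrast divided by the square root of its F. It is not a fitted standard error. Its early minus late level was 2.54 under WL and 1.36 under WW, with a mean of 1.95. Levels by treatment, here and below, are on the log2(CPM + 1) scale. The edgeR contrast is fitted to counts, so these levels need not average to it. BraA08g27680R was higher early by 2.42 (adjusted p = 2.4e-32), again in 16 of 16 accessions. On the log2(CPM + 1) scale it had 1.72 under WL and 0.77 under WW, with a mean of 1.24. Both genes had their largest water response at ZT1, 1.27 ± 1.04 in Bo8g068270 and 1.16 ± 1.07 in BraA08g27680R. BraA07g38940R (A07) was higher early by 1.84 ± 0.14 (adjusted p = 4.2e-29) in 16 of 16 accessions, and its ZT1 response of 1.59 ± 0.93 was the largest of all members, whereas its ZT7 response was 0.06 ± 0.92.

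Among those that were higher late, Bo8g100900 (C8) stood apart with a contrast of -1.96 ± 0.12 (adjusted p = 1.4e-37) and the late level the higher one in 16 of 16 accessions. Its early minus late level was -1.50 under WL and -2.35 under WW, so the late peak was present under both treatments and shallower under WL. BraA07g16890R (A07) had -0.81 ± 0.28 (adjusted p = 0.011) and BraA07g36550R (A07) -0.78 ± 0.17 (adjusted p = 1.3e-05). BraA07g16890R was near the floor, with medians from 0.314 CPM (WL at ZT7) to 1.71 CPM (WL at ZT13). Its highest library had 142 CPM (WW at ZT13). With the median over accessions in place of the mean, its ZT7 response was -0.19. BraA07g36550R had the weakest ZT1 response of all members, 0.00 ± 1.03.

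Over all members the early minus late level had a median of 0.15 under WL and -0.43 under WW, and it was above 0 under WL and below 0 under WW in 35 members, above 0 under both in 24 and below 0 under both in 41. Of the 32 members called higher early 21 were so under both treatments, and of the 40 called higher late 38. In 8 members at least 1 group had 0 counts in all its libraries, where the group means have no finite value on the log scale and the test can return an F near 0 whatever the contrast. 6 of these 8 were not called, among them Bo3g004380, Bo3g004370 and BraA02g45340R, and for them the missing call says nothing about the level. Limma with voom weights called 5 of the 6. BraA08g27680R, is among the 2 that were called, and the size of its contrast therefore depends on how such groups are handled. In tested genes with a mean of 2 CPM or more, 8.78% had such a group, and 16.8% of these were called, against 69.5% of those without one.

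**Figure D3:**
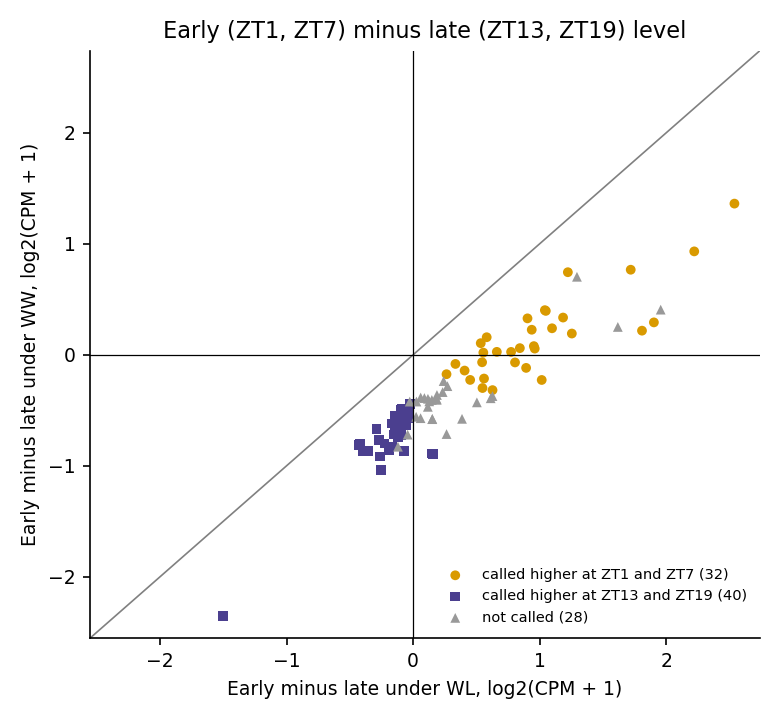
Early (ZT1 and ZT7) minus late (ZT13 and ZT19) level of each member under WL (horizontal axis) and under WW (vertical axis), log2(CPM + 1), means of 16 accessions. Colours give the call for the average of both treatments (32 higher early, 40 higher late, 28 not called). All points lie below the diagonal of equal values because the rule chose members with a more positive value under WL.

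The size of the pattern varied over the accessions. The swing of a member, its early response minus its late response, had a median over members of 0.22 in Ze, 0.27 in Br, 0.29 in Ne and 0.31 in Yu, between 0.50 and 0.79 in 11 accessions and 1.41 in St. St had a positive swing in 99 of 100 members and a swing above 1 in 75, against 8 members above 1 in Ze. St was also the highest and Ze the lowest accession over all genes that passed the CPM filter, with a swing above 1 in 6.08% and 0.387% of them. The median response of the members in St was 0.93 at ZT7 and -1.197 at ZT13, the most extreme of all accessions at both times, and over all genes the ZT7 median in St was 0.29, again the highest. St had the fewest libraries (19), and its single WL library at ZT7 was 1 of the 9 that resembled another time point. Without St, 83 members kept the 4 signs and the medians were 0.22, 0.17, -0.29 and -0.36. At single time points the median response was of the other sign in several accessions, the lowest early values being -0.41 at ZT1 in Mu and -0.30 at ZT7 in Ne. At ZT13 it was 0.01 in Da, and at ZT19 it was 0.00 in DH12.

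**Figure D4:**
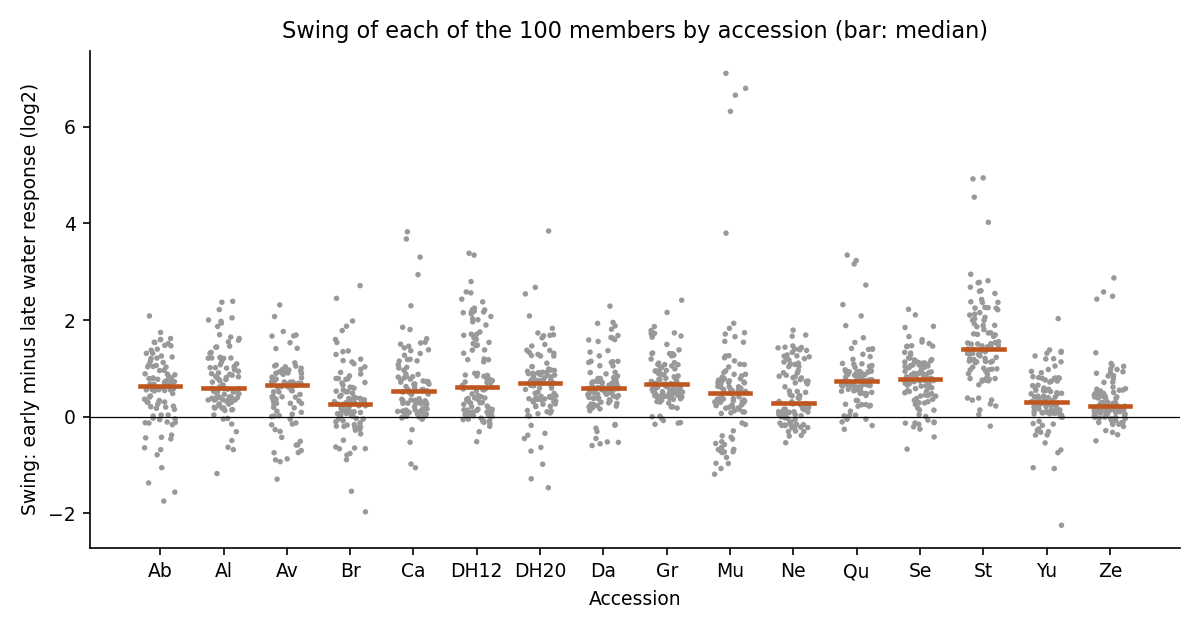
Swing (early minus late water response, log2) of each of the 100 members in each accession. Grey points are members and orange bars the medians, from 0.22 in Ze to 1.41 in St, and the 4 highest points in Mu are the members with neighbouring identifiers.

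Within single genes, the members showed early means above 0 and late means below 0 in 3 to 13 of the 16 accessions, with a median of 8.5, and all 4 signs at once in 1 to 7, with a median of 3. The swing was above 0 in 10 to 16 accessions, in all 16 for 10 members. Over the genes that passed the CPM filter, the median gene had a swing above 0 in 7 accessions. It had early means above 0 and late means below 0 in 2. The rule used the mean over these accessions, so the counts of members are a description. The swing was larger than its SD over accessions in 60 members, with medians of 0.58 for the swing and 0.59 for its SD. Over the genes that passed the CPM filter the SD of the swing had a median of 0.33. For 66 members the 4 signs of the mean stayed the same whichever accession was left out, and 34 lost at least 1 of them without some accession.

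Whether accessions differed in swing was tested for each gene with edgeR, since the rule used only the mean over accessions. Deviations from that mean are independent of it only for groups of equal size. Groups here held 1 to 3 libraries, so the test is not wholly free of the rule. No member was called (0 of 100), against 0.0956% of all tested genes (65 of 67997). At an unadjusted p of 0.05 or less edgeR had 17 members and 6.80% of all tested genes (7.86% of those with a mean of 2 CPM or more). Limma with voom weights also called 0 members, with 5 at an unadjusted p of 0.05 or less, against 6.61% of all genes. The median F was 1.18 over the members and 0.99 over genes of their level, so no call after adjustment does not show that the accessions respond alike. Because selection may bear on these values, the differences between members and other genes are a description. The largest F was that of BraA07g25460R (F = 2.83, adjusted p = 0.17), with a swing from -0.50 in Ze to 3.38 in DH12. Its level ranged over accessions from 0.13 CPM in Mu to 68.5 CPM in Al, and it was under 0.5 CPM in 3 accessions. BraA02g43580R followed (F = 2.34, adjusted p = 0.39), with a swing from -0.97 in Mu to 2.21 in DH12, and then Bo6g115880 (F = 2.30, adjusted p = 0.40), from -1.07 in Yu to 2.54 in DH20. The smallest F was that of Bo4g064600 (F = 0.21, adjusted p = 1), whose swing of 0.63 ± 0.35 lay between 0.03 in Qu and 1.31 in Yu. F sets the spread over accessions against the gene's own scatter between libraries. The lowest SD of the swing over the members was 0.22, below that of Bo4g064600. Bo5g136680 (F = 0.50) had a swing of 0.78 ± 0.40. BraA02g45340R had an F of 0.38 and a swing of 0.48 ± 0.29, but 7 of its groups had 0 counts in all libraries and BraA02g43580R had 1 such group, so the F of these genes cannot be ranked with the others.

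There were 4 members with neighbouring identifiers, BraA03g03840R and BraA03g03850R on chromosome A03 and Bo3g004380 and Bo3g004370 on C3. Their means were 136, 125, 139 and 73.8 CPM in that order. The count tables hold fractions where a read mapped to several places, and these genes had counts that were not whole in 80.5, 83.3, 90.1 and 90.7% of libraries, against a median of 41.8% over the members and 46.0% over genes that passed the CPM filter. Some of their reads thus mapped to several places, and whether the 4 genes shared reads with each other was not tested. Over group means, each set against its accession's mean, the 4 profiles correlated with r of 0.97 to 0.99.

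Their mean responses were near 0 at ZT1 (0.02 to 0.14), 0.96 to 1.24 at ZT7, -1.48 to -1.31 at ZT13 and -0.51 to -0.35 at ZT19, but with SDs over accessions of 2.60 to 2.76 at ZT7 and 2.44 to 2.68 at ZT13. The most extreme values came from 3 accessions. In St at ZT7 BraA03g03840R had 281 CPM in the WL library, against 0.108 and 0.371 CPM in the WW libraries. That WL library is the single one that resembled ZT13. In Ca at ZT13 it had 2.76 CPM in the single WL library, against 249, 1214 and 115 CPM in the WW libraries. In Mu at ZT13 it had 0.885, 10.7 and 0.165 CPM in WL libraries, against 527 and 152 CPM in WW libraries. In these 3 cases the treatments did not overlap, but the cases were picked as the most extreme and no group held more than 3 libraries. How many of all genes lacked overlap in the same groups was not counted, so no conclusion is drawn from it. At ZT7, however, BraA03g03840R was higher under WL in 11 accessions only, and at ZT13 lower in 11. At ZT19 the direction turned when the median over accessions was taken in place of the mean, to values of 0.13 to 0.54 in the 4 genes, and at that time BraA03g03840R was lower under WL in 8 accessions and the other 3 genes in 6. Its ZT7 response was -2.29 in Av, -2.27 in Ca, -1.85 in DH20 and -1.85 in Qu. With the 9 libraries left out, and so without St at ZT7, the ZT7 response of BraA03g03840R was 1.18 and its ZT13 response -1.62. The same step also took away WW libraries of Br, Ca and Qu at ZT7. The value of 1.18 therefore does not show what St alone contributed. BraA03g03840R was called higher early by 1.12 ± 0.25 (adjusted p = 4.5e-05) and BraA03g03850R by 1.22 ± 0.50 (adjusted p = 0.035).

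**Figure D5:**
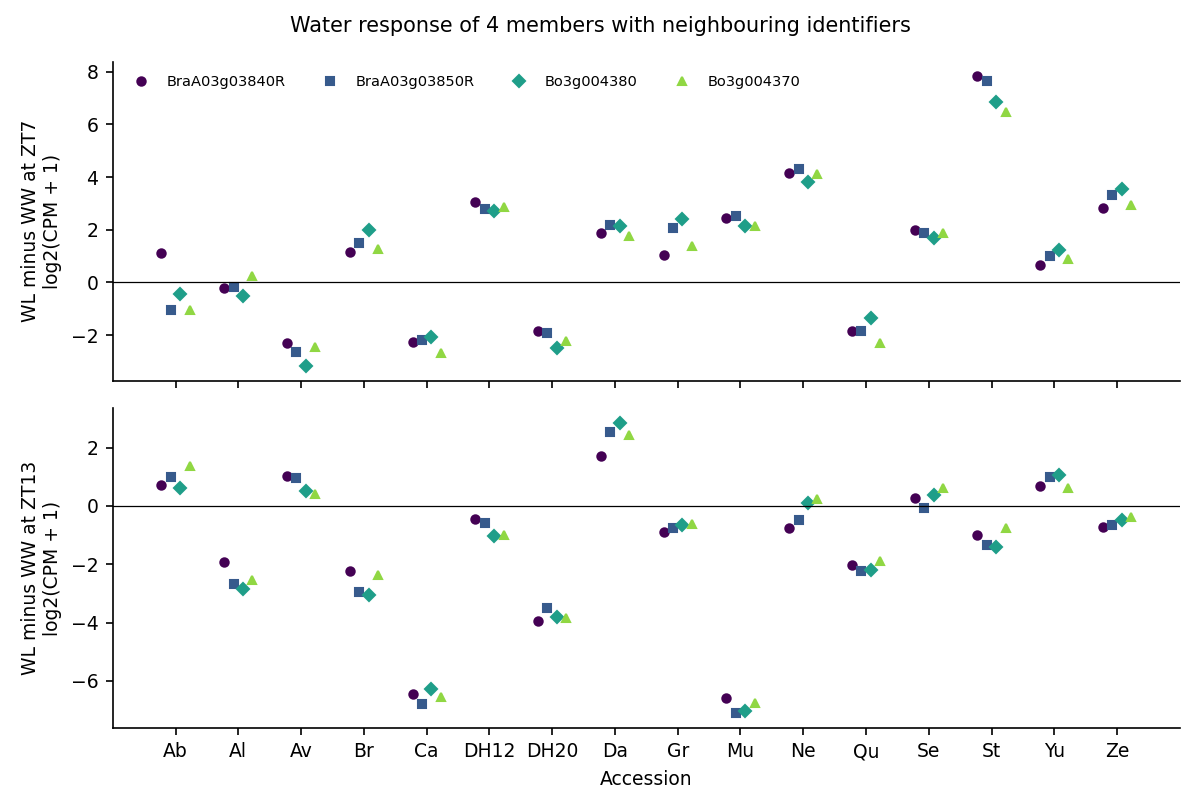
Water response (WL minus WW, log2(CPM + 1)) at ZT7 (upper panel) and ZT13 (lower panel) of the 4 members with neighbouring identifiers, by accession. The 4 genes move together, with the highest ZT7 values in St (7.84 for BraA03g03840R) and the lowest ZT13 values in Ca and Mu (-6.45 and -6.59).

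Pairs of a BnA and a BnC member had the most similar profiles outside this group. Bo3g027200 and BraA03g17390R had r = 0.97, Bo8g068270 and BraA08g27680R r = 0.96, and Bo8g050920 and BraA08g19910R r = 0.96 (over group means, which share libraries). Bo5g041080 and BraA09g37570R followed with r = 0.96, BraA04g04710R and Bo4g114110 with r = 0.95, and Bo3g040390 and BraA02g03680R with r = 0.94. These pairs were picked after their values were seen. The genes of a pair were not matched as copies here. All members were chosen for a like response in the same libraries, which can raise r between any of them. Between 28.5 and 66.4% of libraries had counts that were not whole in these 12 genes, and whether the genes of a pair shared reads was not tested.

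Both subgenomes held members at close to their share of expressed genes, 47 in BnA (46.4% of genes that passed the CPM filter) and 53 in BnC (53.5%). By chromosome, C3 held 19 members against 8.57% of those genes, A07 held 12 against 4.59%, C8 held 8 against 5.49% and C2 none (0 against 4.56%). These shares were not tested. Bo6g112300 (C6), with 133 CPM, came next to the neighbouring genes BraA03g03840R and Bo3g004380 by CPM, which is not corrected for gene length, and its responses were 0.30, 0.28, -0.35 and -0.29. It was called higher early by 0.43 ± 0.13 (adjusted p = 0.0045). The lowest members by CPM were BraA02g45340R (2.52 CPM), Bo3g133020 (2.84 CPM) and Bo4g065810 (3.31 CPM). BraA02g45340R had its highest accession mean in Ab, 5.23 CPM, and its lowest in St, 0.027 CPM. Bo4g065810 (C4) was called higher early by 1.33 ± 0.14 (adjusted p = 2.8e-16). Per gene length, the mean level in the deposited log2 FPKM lay between -0.34 (BraA07g16890R, listed in 4 accessions) and 7.42 (Bo3g031850), with a median of 3.41 over the members. In 21 members the accession with the highest mean level had at least 10 times the CPM of the lowest.

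For 1 member, BraA02g34500R (A02), the study's table pairs the identifier with GO terms, all from the group it names biotic stress, among them induced systemic resistance and activation of innate immune response. The table is held here only in part and was made from these samples, so it serves as annotation. BraA02g34500R had responses of 0.14 ± 1.10, 0.16 ± 1.48, -0.32 ± 1.09 and -0.56 ± 1.204, each smaller than its SD over accessions. Its swing ranged from -1.06 in Ca to 2.12 in St, and it was not called in the early minus late test (adjusted p = 1).

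Membership was recomputed under other settings. With library sizes scaled by TMM 82 of the 100 members were chosen again, with a pseudocount of 0.1 74, and on the deposited log2 FPKM 64 of the 78 members listed in all 16 accessions. With the median over accessions in place of the mean 50 were chosen again and 69 kept the 4 signs, which were lost most often at ZT7 (15 members). Without Qu and Ze 69 were chosen again and 81 kept the signs. Without the 9 libraries that resembled another time point 70 were chosen again. Leaving out 1 replicate number gave 34 to 56. Without replicate 2, 53 members kept the 4 signs, and the sign was lost most often at ZT7, in 38 members, where the median response was 0.14.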

How the data were processed

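RNA-seq of leaf apices was analysed in 354 libraries; 1 listed library (Br under WW at ZT13, replicate 1) was not analysed here. The authors trimmed reads with Trimmomatic 0.33, mapped them with HISAT2 2.1.0 to a reference joining B. oleracea TO1000 to B. rapa R500, and used featureCounts by strand, adding a fraction of a read to each of several places. The deposited estimated counts are not normalized. The authors also deposited log2 FPKM, normalized with edgeR within each accession, which were used only as an alternative scale.

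Counts were rounded, normalized by TMM, filtered with filterByExpr and fitted with edgeR 4.0.16 (glmQLFit, 1 mean per group, no block). The null fits used a faster solver for the same likelihood, checked against glmQLFTest on the 100 members: log10 p differed by at most 7.6e-05 where p was over 1e-04 and by at most 1.71 where it was smaller. The tests were also run on simulated data with known changes, which used gene means and dispersions from the main fit. The reported tests used the deposited counts. Alternatives used limma 3.58.1 and DESeq2 1.42.0. Depth was 3216762 to 35177558 counts per library. Replicates were individual plants.

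The members, lists, tests and the rule for named genes were chosen with earlier results of these data known. Named genes were the 12 with the largest gap, the genes on either side of rank 100, the 3 largest and 3 smallest F over accessions, the 3 largest early minus late contrasts of each sign, the 3 highest and 3 lowest by CPM, members with a GO term and members with neighbouring identifiers; others were chosen after their values were seen.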

Additional observations from a re-analysis of the deposited data

How the results depend on the processing

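The early minus late calls of the members (72) numbered 61 to 77 under the alternatives run, 31 to 36 of them higher early and 29 to 42 higher late, and no call turned its direction. The share of all tested genes called ran from 34.1% to 60.9% under the same alternatives. No alternative that tested differences among accessions called a member. Of the water responses of the named members, 2 moved by more than their SD over accessions, both of BraA06g28190R at ZT1 (1.35 with a pseudocount of 0.1 and 1.80 on the deposited log2 FPKM). The number of members chosen again was 64 on the deposited log2 FPKM and 34 to 56 without 1 replicate number, and 53 to 85 members kept the 4 signs without 1 replicate number. BraA02g34500R, not called in any direction, had an early minus late contrast of 0.00 that turned to -0.00046 with RLE size factors, -0.013 without a low-count filter, -0.16 without St, -0.35 without the 9 libraries that resembled another time point, -0.30 without replicate 2, -0.14 without replicate 3, -0.149 with limma and voom weights and -0.030 with a replicate block in that fit, and it was 0.138 without replicate 1. Bo6g115880, also not called, turned to 0.067 without replicate 1 and was -0.15 without replicate 3. The cause was not tested.

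Same-numbered libraries did not deviate together (median r over accessions of -0.03, against 0.02 for different numbers), so the numbers were not taken as pairs. The replicate block in edgeR was not run. In limma with voom weights a replicate block, added after the data were seen, gave 76 early minus late calls and 0 among accessions, against 77 and 0 without it. With differences taken within replicate number as a block, 88 members kept the 4 signs and 70 were chosen again. Leaving out single accessions was also added after the data were seen. Fractional counts and groups of 1 library limit the values of single genes.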
